A study of Mus musculus with 4 samples.

Results

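Flna, Actn4, Actb and Tpm4 encode proteins that build and crosslink actin filaments in fibroblasts, and their transcripts were examined here for binding by the splicing factors SRSF1 and SRSF2 in mouse embryonic fibroblasts (MEFs). The members were all peaks whose deposited name carries the RefSeq transcript of 1 of these 4 genes. They came to 164 of 107319 peaks, of which 75 of 50983 were SRSF1 peaks and 89 of 56336 were SRSF2 peaks.

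The peaks came from CLIP-seq, in which ultraviolet light crosslinks a protein to RNA in living cells, the protein is precipitated, and the attached RNA fragments are sequenced. MEFs are connective tissue cells grown from embryos. Per the labels, SRSF1 was measured in the SRSF1 tetracycline-repressible line and SRSF2 in the SRSF2 line, both kept without tetracycline and both precipitated with an antibody against the HA tag. Protein and cell line therefore cannot be told apart, and the labels do not say whether a line was 1 clone. The SRSF1 line was also profiled after a control siRNA and after an siRNA against SRSF2, and those samples were not analysed here. Each protein has 1 library with 1 peak list, so no value has a replicate error and no p-value was computed.

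SRSF1 and SRSF2 belong to the SR proteins, named for their domains of serine and arginine repeats. They bind short sequences in pre-mRNA and help the splicing machinery choose exons, and SRSF1 also takes part in later steps of the life of an mRNA. Actin filaments in fibroblasts are gathered into stress fibres, contractile bundles that anchor at adhesions to the matrix. Actb encodes β-actin, the filament subunit itself; Tpm4 encodes a tropomyosin that lies along the filament; Actn4 encodes α-actinin-4, which bundles filaments side by side; and Flna encodes filamin A, which crosslinks filaments into networks.

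Facts of the whole lists limit what follows. The score of a peak is a whole number with its meaning not given in the sources used here, and its median was 8 in both lists. The lowest score differed from gene to gene, so a score set beside that of another gene describes the listed values and not the strength of binding. Positions are on mm9, 1-based. No sequence or annotation of that build was at hand, so no peak was assigned to an exon, intron or untranslated region. Named genes hold 15.8% of SRSF1 and 16.0% of SRSF2 peaks, and the remainder lies in units without a gene name, so a gene with 0 peaks here was not shown to be unbound. Of 12 fibroblast markers 2 had a named peak, Col1a1 with 55 SRSF1 and 52 SRSF2 peaks and Postn with 13 and 2. Of 5 epithelial markers Krt19 had 1 SRSF1 peak, and smooth muscle (5 genes), endothelial (4) and macrophage (4) markers had 0.

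Both proteins were listed on all 4 transcripts, in similar numbers on Flna, Actn4 and Actb and with fewer SRSF1 than SRSF2 peaks on Tpm4. Flna carried most peaks, with 45 of SRSF1 and 51 of SRSF2. Actn4 carried 18 and 19, Actb 9 and 12, and Tpm4 3 and 7. Taken with the exact (Clopper-Pearson) 95% binomial interval, SRSF1 made up 46.9% of the Flna peaks (36.6 to 57.3), 48.6% of the Actn4 peaks (31.9 to 65.6), 42.9% of the Actb peaks (21.8 to 66.0) and 30% of the Tpm4 peaks (6.67 to 65.2). Each of these intervals includes the 47.5% of all peaks, and each includes the share on the gene's own chromosome, which was 45.2% on X, 49.1% on 7, 45.5% on 5 and 48.1% on 8. Intervals cover counting error only, since peaks of 1 transcript are not independent molecules. Among the 528 named genes with at least 10 peaks, 2.27% had an interval above the overall share and 2.65% below it, and 0 of the 4 genes did either. For Tpm4 the interval is so wide that a share as low as 6.67% could not be told from 65.2%.

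**Figure D1:**
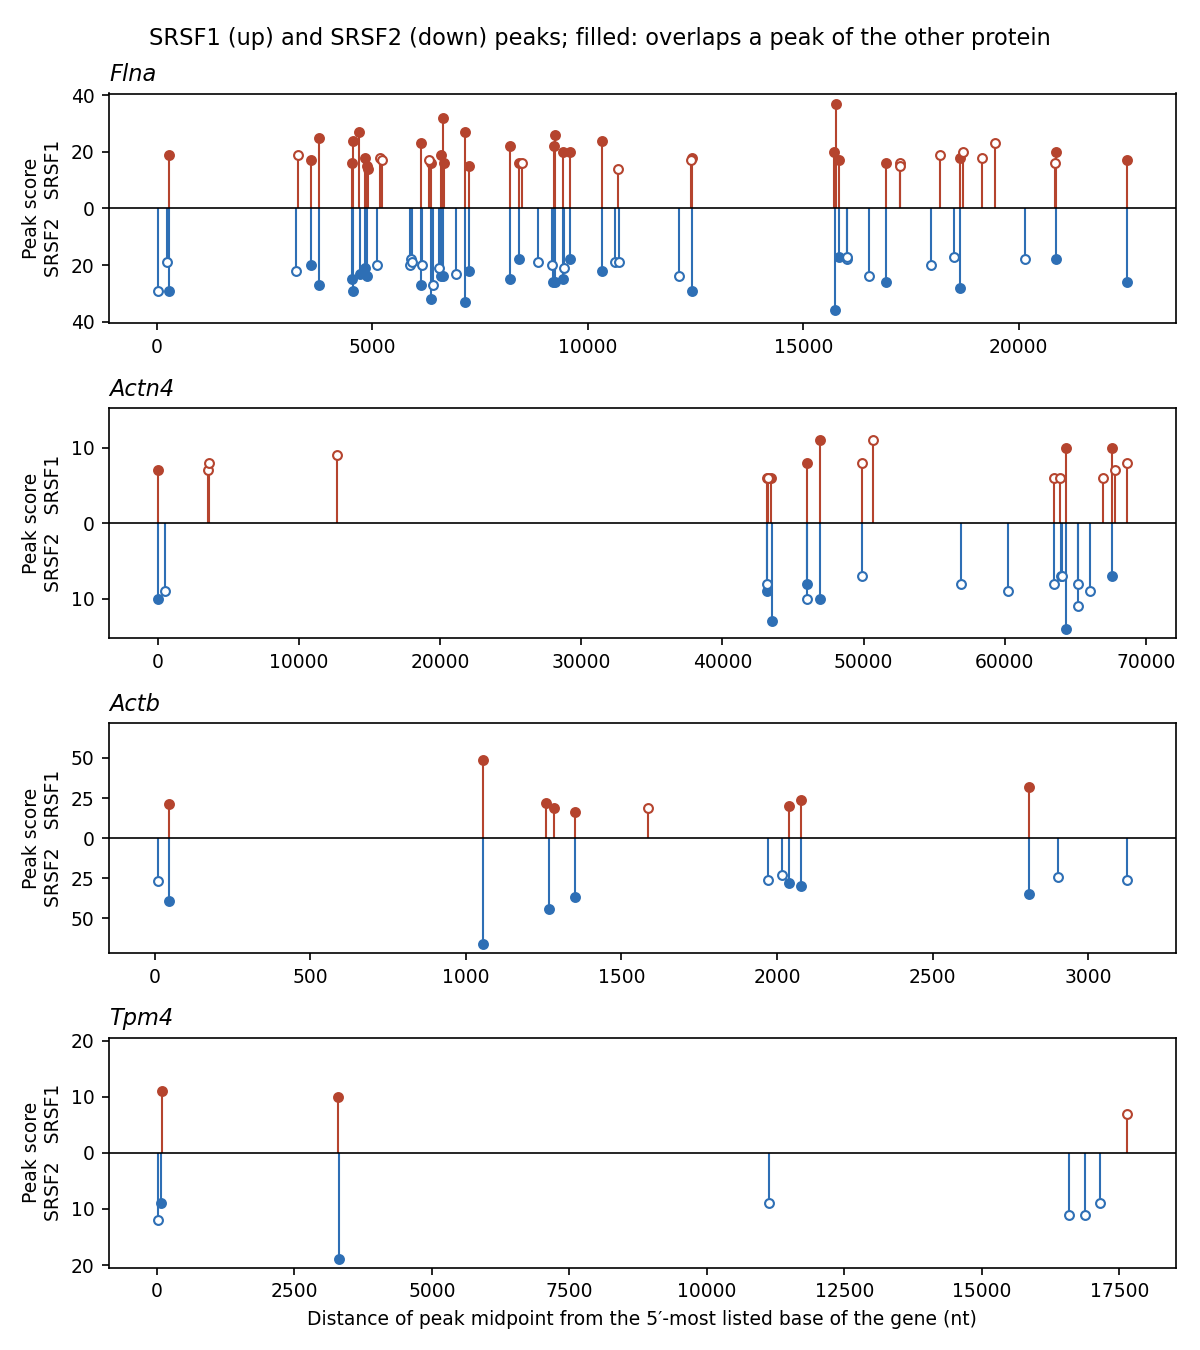
Peaks of SRSF1 (red, upward) and SRSF2 (blue, downward) along Flna, Actn4, Actb and Tpm4. The horizontal axis is the distance of the peak midpoint, in nt along the direction of transcription, from the first listed base of the gene; the vertical axis is the deposited peak score, and filled points overlap a peak of the other protein. The highest points of both proteins coincide in Flna (37 and 36) and in Actb (49 and 66), and Actn4 has a stretch of 30383 nt without a peak.

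Flna, the filamin A gene, lies on the minus strand of chromosome X, with peaks from 71469173 to 71491710. These 96 peaks made it the fourth of the 528 named genes by number of peaks, and at 4.26 peaks per kb of the span it ranked 16, against a median of 0.628. Peaks of either protein covered 6.32% of the span. The SRSF1 scores ran from 14 through a median of 18 to 37, and the SRSF2 scores from 17 through 22 to 36. All 45 SRSF1 and all 51 SRSF2 peaks were in the upper 50% of their lists by score. Even the lowest-scoring listed Flna peak thus scored above the median peak of its list.

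Within Flna both proteins piled up in the same part of the gene. With the span cut into 10 equal bins from the 5′ end, the third held 14 SRSF1 and 16 SRSF2 peaks, while no other bin held more than 6 SRSF1 or 9 SRSF2 peaks. Joining peaks separated by at most 1000 nt gave 5 blocks, and all 5 held both proteins. The largest, of 7519 nt (71480971 to 71488489), held 28 SRSF1 and 34 SRSF2 peaks, and the next, of 5181 nt (71470824 to 71476004), held 13 and 11. The other blocks were short. One at the 5′ end, of 294 nt, held 1 and 3 peaks, one of 349 nt held 2 and 2, and one at the 3′ end, of 32 nt, held 1 and 1. The 3′ 50% of the span held 31.3% of the Flna peaks (22.2 to 41.5), rank 436 of 528 genes from the highest, whose median was 54.5%.

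The highest-scoring Flna sites were common to both proteins. The top SRSF1 peak, at 71475941 to 71475975 with a score of 37, and the top SRSF2 peak, at 71475943 to 71476004 with a score of 36, shared 33 nt. A second SRSF1 peak, at 71475977 to 71476004 with a score of 20, lay inside the same SRSF2 peak, so that 1 SRSF2 interval covered what the SRSF1 list gives as a pair of adjoining peaks. The second highest SRSF1 peak, at 71485054 to 71485086 (score 32), met an SRSF2 peak with a score of 24. The SRSF1 peak at 71484544 to 71484577 (score 27) and the second highest SRSF2 peak, at 71484545 to 71484575 (score 33), had midpoints 0.5 nt apart. The third highest SRSF1 score, also 27, was at 71486989 to 71487035 and met an SRSF2 peak with a score of 23. The third highest SRSF2 peak, at 71485345 to 71485376 (score 32), met an SRSF1 peak with a score of 16. Every one of the top 3 ranks of either protein in Flna therefore overlapped a peak of the other. Such overlap was common at high scores in the whole lists. There, 76.2% of SRSF1 peaks scoring at least 16 and 81.2% of SRSF2 peaks scoring at least 23 were overlapped.

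Overlap, for which 1 nt in common on the same strand was enough, was frequent in Flna. Of 45 SRSF1 peaks, 31 (68.9%, 53.4 to 81.8) were overlapped by an SRSF2 peak, against 38.7% over the whole SRSF1 list. Of 51 SRSF2 peaks, 28 (54.9%, 40.3 to 68.9) were overlapped by an SRSF1 peak, against 35.2% of the SRSF2 list. Intervals above the list's own share were found for 7.2% of the 528 named genes with SRSF1 peaks counted and for 6.25% with SRSF2 peaks counted, and for both at once in 3.6%, Flna included. Intervals below it were found for 2.65% and 1.7%. The Flna peaks were also dense and high in score, and the part of either in the excess over the whole list was not tested. In the 20 named genes nearest to Flna in peaks per kb, 62.3% of SRSF1 and 49.9% of SRSF2 peaks were overlapped, and both values lie within Flna's intervals. Among all SRSF1 peaks scoring at least 14, the lowest score in Flna, 71.3% were overlapped, which Flna's interval includes. Among all SRSF2 peaks scoring at least 17 the share was 72.0%, above Flna's interval. Those comparison peaks include scores higher than any in Flna, and both comparisons were chosen after seeing the data.

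Overlapping Flna peaks matched closely in position, and so did the overlapping pairs of both lists. The Flna peaks had median widths of 22 nt for SRSF1 and 20 nt for SRSF2. Peaks this narrow can overlap only where their midpoints are close. The 31 pairs had a median distance of 2.5 nt between midpoints, 27 of them had midpoints within 10 nt, and 3 had identical ends, at 71479271 to 71479298 (scores 18 for SRSF1 and 29 for SRSF2), 71483309 to 71483318 (16 and 18) and 71485558 to 71485586 (23 and 27). Over all 20654 pairs of both lists, 83.9% had midpoints within 10 nt and 2.15% had identical ends. In 23 of the Flna pairs the SRSF2 score was the higher and in 6 the SRSF1 score, where over all pairs these shares were 55.8% and 33.0%. The lowest listed Flna score was 17 for SRSF2 and 14 for SRSF1. A pair with an SRSF1 score below 17 could therefore only have the higher score for SRSF2. That limit touches a minority of the Flna pairs, whose SRSF1 peaks had a median score of 19. Its part in the difference was not tested. Across the 31 pairs the scores had a Spearman rho of 0.301, a description over sites that share a transcript and 2 libraries, and over all pairs of the lists the rho was 0.620.

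Flna peaks without a partner had lower median scores, and some had a midpoint of the other protein within 100 nt. Overlapped SRSF1 peaks had a median score of 19 and the 14 others 17; overlapped SRSF2 peaks had a median of 25 and the 23 others 20. The SRSF2 peaks without a partner were also narrower, with a median width of 12 nt against 22.5 nt; the part of width in the overlap was not tested. Of the 14 SRSF1 peaks alone, 8 had an SRSF2 midpoint within 100 nt, and of the 23 SRSF2 peaks alone, 10 had an SRSF1 midpoint within that distance. The share within 100 nt over all unpartnered peaks of the lists was not taken, so these counts have no comparison value. The highest unpartnered peaks were an SRSF2 peak near the 5′ end, at 71491683 to 71491710 with a score of 29, and an SRSF1 peak at 71472250 to 71472269 with a score of 23, whose nearest SRSF2 midpoint was 688.5 nt away.

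**Figure D2:**
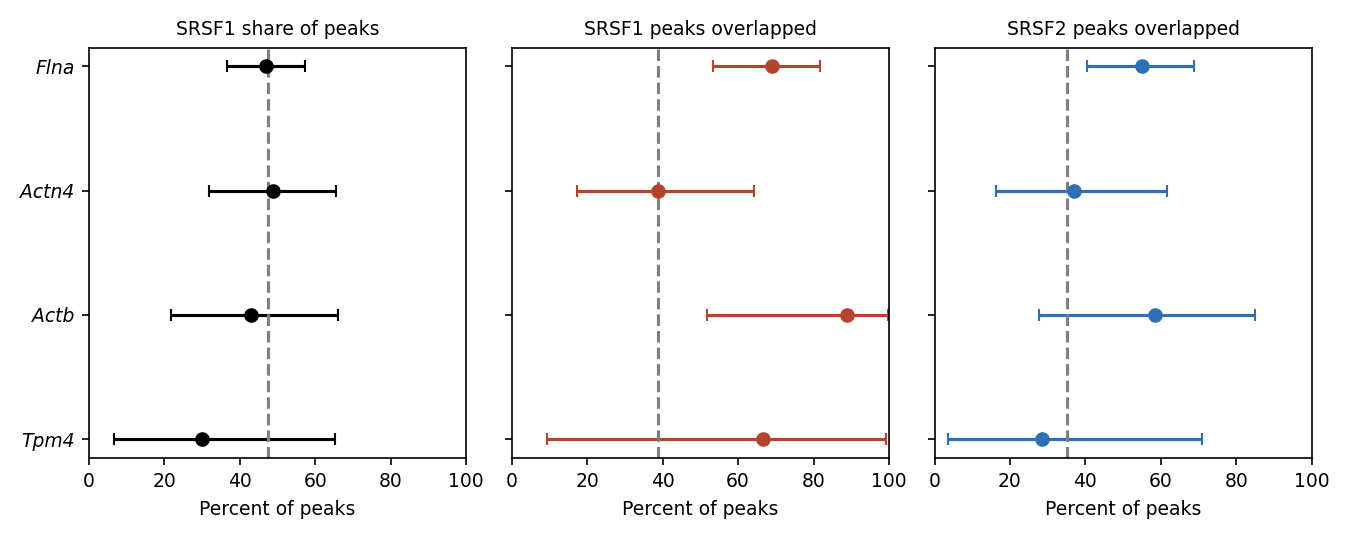
SRSF1 share of the peaks (left), share of SRSF1 peaks overlapped by SRSF2 (middle) and share of SRSF2 peaks overlapped by SRSF1 (right) in each gene, in percent of peaks. Bars are exact 95% binomial intervals and dashed lines the values over the whole lists (47.5%, 38.7% and 35.2%); the bars of Flna lie above the line in both overlap panels and that of Actb in the middle one.

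Actb, the β-actin gene, had the highest scores of the 4 genes, in the shortest span. It lies on the minus strand of chromosome 5, with peaks from 143665259 to 143668395. With 21 peaks in 3137 nt it ranked 7 of 528 genes by peaks per kb of span (6.69) and 520 by length of the span. SRSF1 scores ran from 16 through a median of 21 to 49, and SRSF2 scores from 23 through 29 to 66. The lowest SRSF2 score ranked 3 among the 528 genes, shared with other genes, where the median lowest score was 7. All Actb peaks lay within a single block.

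Most of the Actb peaks, 8 of 9 for SRSF1 and 7 of 12 for SRSF2, lay at sites listed for both proteins. The highest peaks of each protein were at 143667320 to 143667360 for SRSF1 (score 49) and 143667318 to 143667361 for SRSF2 (score 66), with midpoints 0.5 nt apart, and 0.382% of all SRSF1 and 0.266% of all SRSF2 peaks scored at least as high. Close to it, SRSF2 had a peak of 45 nt at 143667105 to 143667149 (score 44) that overlapped 2 SRSF1 peaks, most of that at 143667103 to 143667121 (score 19) and all of that at 143667127 to 143667149 (score 22). Near the 3′ end, peaks at 143665573 to 143665596 for SRSF1 (score 32) and 143665573 to 143665595 for SRSF2 (score 35) shared 1 end. A pair of sites at 143666307 to 143666328 and 143666345 to 143666367 had SRSF1 scores of 24 and 20 and SRSF2 scores of 30 and 28. At the 5′ end an SRSF1 peak of 12 nt, 143668343 to 143668354 with a score of 21, lay inside an SRSF2 peak of 35 nt with a score of 39. The remaining pair, at 143667039 to 143667051 for SRSF1, scored 16 and 37.

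Of the 9 Actb SRSF1 peaks 8 were overlapped (88.9%, 51.8 to 99.7), with an interval above the 38.7% of the list. Of the 12 SRSF2 peaks 7 were (58.3%, 27.7 to 84.8), with an interval that includes 35.2%. In the 20 genes of like peak density 65.2% of SRSF1 and 60.1% of SRSF2 peaks were overlapped, and both shares lie within the Actb intervals. SRSF2 scored higher than SRSF1 in all 8 pairs. The lowest listed Actb score was 23 for SRSF2 and 16 for SRSF1. A pair with an SRSF1 score below 23 could therefore only have the higher score for SRSF2. The pairs with SRSF1 scores of 49, 32 and 24 were above that limit. The lone SRSF1 peak, at 143666803 to 143666817, scored 19 and had its nearest SRSF2 midpoint at 233.5 nt. The 5 lone SRSF2 peaks had a median score of 26 against 37 for those with a partner, and 2 of them lay nearest to the 3′ end, at 143665483 to 143665499 (score 24) and 143665259 to 143665281 (score 26). Part of the Actb sequence is not unique: 36.5% of the 30-nt stretches of its transcript on GRCm38 also occur in annotated transcripts of 85 other genes. The largest part is shared with transcripts annotated to Lrrc58 (23.6%), and 5.82% with Actg1. How reads were placed among such stretches is not given, so the assignment of the Actb peaks is uncertain.

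**Figure D3:**
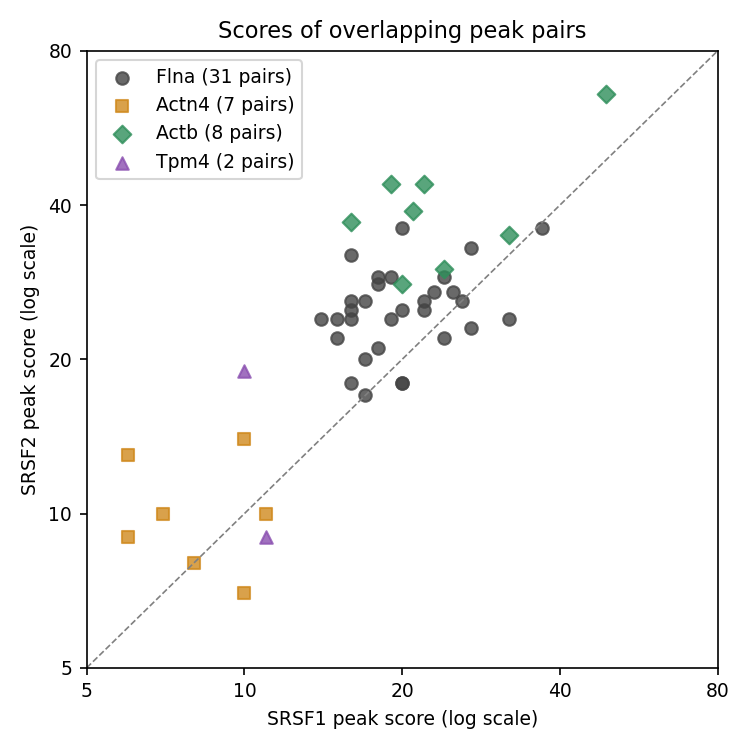
Deposited SRSF2 score against SRSF1 score (both on log scales) for overlapping peak pairs, 31 in Flna, 7 in Actn4, 8 in Actb and 2 in Tpm4; the dashed line marks equal scores. The Actb pairs lie above the line, Flna has 23 pairs above and 6 below, and the Actn4 pairs have the lower scores, 6 to 11 for SRSF1. The lowest listed scores of SRSF1 and SRSF2 were 14 and 17 in Flna and 16 and 23 in Actb.

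Actn4, the α-actinin-4 gene, carried scattered peaks with scores near those of other named genes. It lies on the minus strand of chromosome 7, with peaks from 29678518 to 29747201. Its 37 peaks in 68684 nt gave 0.539 peaks per kb, rank 301 of 528. SRSF1 scores ran from 6 through 7.5 to 11 and SRSF2 scores from 7 through 9 to 14. Of the SRSF1 peaks 9 of 18, and of the SRSF2 peaks 10 of 19, were in the upper 50% of their lists. Its top scores, 11 and 14, stood beside medians of 12 and 14 over the 528 genes, so that in density and score Actn4 was close to the middle of the named genes.

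The Actn4 peaks gathered toward the 3′ end. The 3′ 50% of the span held 14 of 18 SRSF1 peaks (77.8%, 52.4 to 93.6) and 17 of 19 SRSF2 peaks (89.5%, 66.9 to 98.7), together 83.8% (68.0 to 93.8), rank 52 of 528 genes. The last of the 10 bins alone held 7 SRSF1 and 8 SRSF2 peaks. A stretch of 30383 nt without a peak, from 29704081 to 29734463, separated these from 6 peaks at the 5′ end. On GRCm38 the annotated transcript has 21 exons and a longest intron of 42950 nt; these are lengths only, and no peak was placed in it. Of 9 blocks 5 held both proteins. The blocks with SRSF1 alone lay in the 5′ part, at 29743512 to 29743665 (2 peaks) and at 29734464 to 29734488 (1 peak), and those with SRSF2 alone, at 29690322 to 29690336 and 29686933 to 29686957, each held 1 peak.

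Overlap in Actn4 was found for 7 of 18 SRSF1 peaks (38.9%, 17.3 to 64.3) and 7 of 19 SRSF2 peaks (36.8%, 16.3 to 61.6), with intervals that include the shares of the lists. These shares were lower than the 68.9% and 54.9% of Flna, and the difference between the genes was not tested. The top SRSF2 peak, at 29682877 to 29682903 (score 14), met the SRSF1 peak at 29682878 to 29682901 (score 10). Of the SRSF1 peaks with the top score of 11, that at 29700280 to 29700306 met an SRSF2 peak with a score of 10, while that at 29696532 to 29696550 had its nearest SRSF2 midpoint 792 nt away. The third SRSF1 score, 10, also occurred at 29679616 to 29679651, which met an SRSF2 peak with a score of 7. The second SRSF2 peak, at 29703694 to 29703732 (score 13), contained a narrow SRSF1 peak with a score of 6. The third SRSF2 peak, at 29682018 to 29682050 (score 11), had no partner, and its nearest SRSF1 midpoint lay 855.5 nt away. At the 5′ end the peaks of both proteins ended at the same base, 29747201, with scores of 7 and 10.

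Tpm4, the tropomyosin gene, had the fewest peaks. It lies on the plus strand of chromosome 8, with peaks from 74659234 to 74676882, and its 3 SRSF1 and 7 SRSF2 peaks gave 0.567 per kb of span, rank 289 of 528. SRSF1 scores were 11, 10 and 7 in the order of the transcript, and SRSF2 scores ran from 9 through 11 to 19. The pairs lay in the 5′ part. The first joined an SRSF1 peak at 74659304 to 74659338 (score 11) and an SRSF2 peak at 74659299 to 74659329 (score 9). The second joined an SRSF1 peak of 43 nt at 74662511 to 74662553 (score 10) and, around it, an SRSF2 peak of 77 nt at 74662498 to 74662574 (score 19), the widest peak of either protein in the 4 genes. The second highest SRSF2 peak, at 74659234 to 74659259 (score 12), was the first of the gene and had no partner, with an SRSF1 midpoint 74.5 nt away.

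Toward the 3′ end of Tpm4 the proteins did not meet. The last block, from 74675811 to 74676882, held 3 SRSF2 peaks, at 74675811 to 74675831 (score 11), 74676088 to 74676107 (score 11) and 74676371 to 74676385 (score 9), and then 1 SRSF1 peak at 74676866 to 74676882 with a score of 7, whose nearest SRSF2 midpoint was 496 nt upstream. A further SRSF2 peak stood alone at 74670365 to 74670375 (score 9). In all, 2 of 3 SRSF1 peaks (66.7%, 9.43 to 99.2) and 2 of 7 SRSF2 peaks (28.6%, 3.67 to 71.0) were overlapped, intervals too wide to set Tpm4 apart from the lists or from the other genes. Of the 30-nt stretches of its transcript 16.9% also occur in the annotated transcript Gm7809, so the assignment of reads is uncertain here too. For Actn4 such stretches came to 2.34%, most of them in Actn1, and for Flna to 0%.

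**Figure D4:**
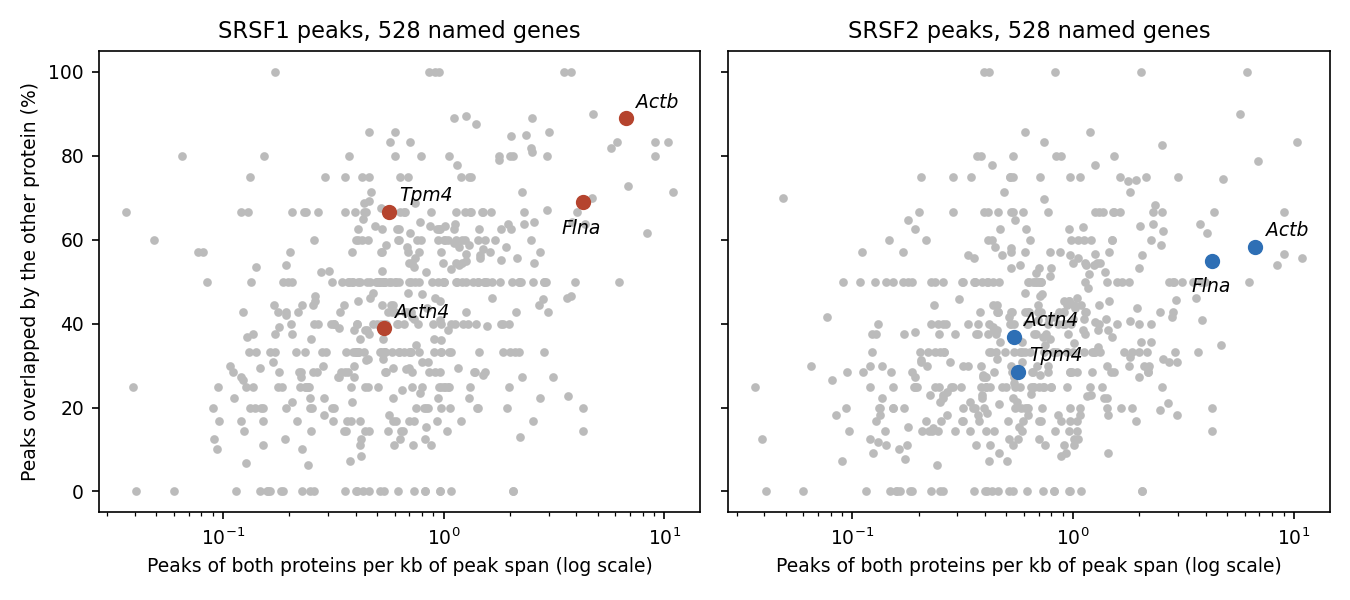
Percent of SRSF1 peaks (left) and SRSF2 peaks (right) overlapped by the other protein, against peaks of both proteins per kb of peak span (log scale), for 528 named genes with at least 10 peaks (grey), the 4 genes coloured and labelled. Flna (4.26 per kb) and Actb (6.69 per kb) lie at the dense end, and Actn4 (0.539) and Tpm4 (0.567) near the median of 0.628.

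Taken over the 4 genes, 48 of 75 SRSF1 peaks (64.0%, 52.1 to 74.8) and 44 of 89 SRSF2 peaks (49.4%, 38.7 to 60.2) were overlapped, against 44.5% and 39.4% in the other named genes with at least 10 peaks. The SRSF1 interval lies above the 44.5%, and the SRSF2 interval includes the 39.4%. Flna supplies most of these peaks, and without it the shares were 56.7% (37.4 to 74.5) and 42.1% (26.3 to 59.2), whose intervals include the shares of the lists. Of the 27 SRSF1 peaks without an overlap, 12 had an SRSF2 midpoint within 100 nt, and of the 45 SRSF2 peaks without one, 21 had an SRSF1 midpoint that near. For these counts too, no share over the lists was taken. No peak of another host unit lay inside the span of any of the 4 genes, on either strand. Within 10000 nt of the spans, 1 SRSF1 and 3 SRSF2 peaks lay in an unnamed cluster beside Flna on the opposite strand. Beside Tpm4 there were 2 peaks of each protein, and beside Actn4 and Actb 0.

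Some peak numbers were missing from both lists, most of them in Flna. Its highest peak number was 59 for SRSF1, of which 45 were listed, and 67 for SRSF2, of which 51 were listed. Actn4 had 18 of 18 and 19 of 25, Actb 9 of 11 and 12 of 13, and Tpm4 3 of 4 and 7 of 7. A peak without a partner may have had one among the unlisted numbers.

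Beyond the 4 genes, 14 of 81 further genes of the actin cytoskeleton had a peak under their RefSeq id, 12 of them of both proteins. Among all named genes with a peak other than the 4, 1418 of 2151 had peaks of both, and the difference was not tested. The share of all RefSeq genes with a peak was not taken, so the 14 of 81 has no comparison value. None of the closest relatives of Actn4 and Tpm4 had a named peak (Actn1, Actn2, Actn3, Tpm1, Tpm2 and Tpm3). Most peaks lie in units without a gene name, so these genes were not shown to be unbound. Of the actins Actg1, encoding γ-actin, had 2 SRSF1 and 2 SRSF2 peaks with no overlap. Of the further genes 4 had at least 10 peaks. Cttn, encoding cortactin, which stabilises branched actin, had 13 SRSF1 and 12 SRSF2 peaks, with 6 of each overlapped. Cnn3, encoding an actin-binding calponin, had 6 and 11, with 3 of each overlapped. Fscn1, encoding the bundling protein fascin, had 4 and 8, with 1 of each overlapped, and Fermt2, encoding the integrin activator kindlin-2, had 2 and 10, with 2 of each overlapped. The intervals of their SRSF1 shares, 52.0%, 35.3%, 33.3% and 16.7%, all included 47.5%. Of the 8 genes of the list with at least 10 peaks, 0 had a share interval above and 0 below the overall share, and their median share was 39.1%, beside 46.7% in all 528 named genes.

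**Figure D5:**
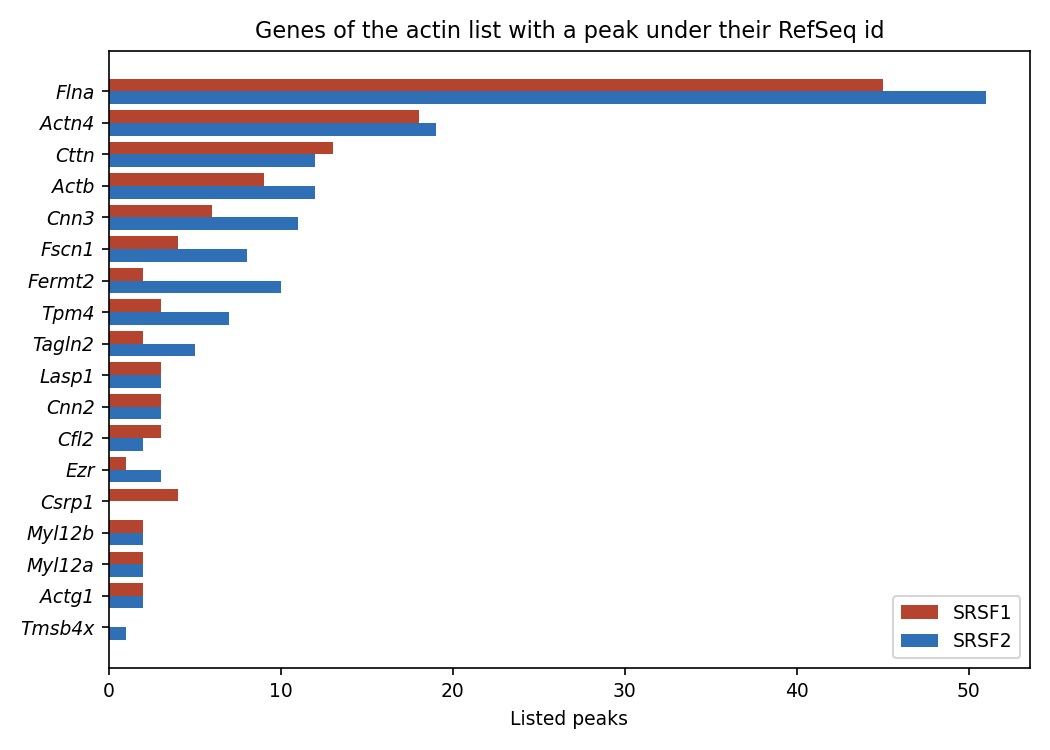
Number of listed SRSF1 (red) and SRSF2 (blue) peaks in each of the 18 genes of the actin list with a peak under their RefSeq id. Flna has the longest bars with 45 and 51 peaks, and Csrp1 (4 SRSF1 peaks) and Tmsb4x (1 SRSF2 peak) are the genes with 1 protein alone.

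The named genes most like each of the 4 in peak numbers and overlap were found by the Euclidean distance across the 2 libraries. That distance was taken over both peak numbers, on a log2 scale, and both overlapped shares, as fractions multiplied by 4. Nearest to Flna were Usp32 (34 SRSF1 and 47 SRSF2 peaks, 67.6% and 53.2% overlapped, distance 0.419) and Fam120a (30 and 39, 60.0% and 51.3%, distance 0.784). These genes spread their peaks over longer spans, 154747 nt and 87617 nt, than the 22538 nt of Flna. Nearest to Actn4 were Arhgap10 (19 and 21, distance 0.208) and Cenpe (20 of each, distance 0.235). Nearest to Actb were Cct8 (9 and 17, 88.9% and 58.8% overlapped, distance 0.470) and Eif4h (9 and 13, distance 0.491). Tpm4 had the same numbers as Creld2 (3 and 7, with the same shares overlapped), and next came Jpt1 (3 and 8, distance 0.222).

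The mature transcripts of the 4 genes were also searched for short motifs, in the sense direction alone and with overlapping matches counted, as a description that is not tied to any peak. GGAGA, a purine-rich motif known to bind SRSF1, occurred 14 times in the 8345 nt of Flna and 14 times in the 3877 nt of Actn4, or 1.68 and 3.61 per kb, ranks 331 and 37 of 528 genes, whose median was 1.94. Actb had 5 (2.60 per kb) and Tpm4 6 (2.82 per kb), and 98.7% of the 528 transcripts held the motif. GAAGAA, another purine-rich motif, occurred 9 times in Flna (1.08 per kb, rank 214), 1 time in Actn4 (0.258 per kb, rank 458), 4 times in Tpm4 (1.88 per kb, rank 77) and 0 times in Actb, against a median of 0.875 per kb, so that the order of the genes differed between these motifs. GGNG and CCNG, both known to bind SRSF2, occurred at 25.8 and 23.6 per kb in Flna and at 27.3 and 28.1 per kb in Actn4, against medians of 17.3 and 18.6. Actb had 14.6 and 23.4 and Tpm4 15.0 and 17.9 per kb, and every transcript held both. Each GGAGA match also contains a GGNG match, so the counts of these motifs are not independent. Per kb of mature transcript, Flna had 11.5 peaks, Actb 10.9, Actn4 9.54 and Tpm4 4.70, a ratio that counts peaks wherever they lay in the gene. On this scale Actn4 came close to Flna and Actb, whereas per kb of peak span it had 0.539 against 4.26 and 6.69.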

How the data were processed

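Per the submitters' processing notes the reads were placed on mm9. For aligner and peak caller, names were not given in the sources used here. For each library the authors deposited 1 peak list, with position, name, score and strand, and the deposited score has no stated unit. Read depth was not given, so no depth limit could be set.

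RefSeq ids were matched to symbols with a table of GRCm38.p6, used for names only (2155 of 2169 ids). Overlap counts matched those of bedtools 2.31.1. Python 3.11.15, pandas 2.3.3, scipy 1.17.1 and matplotlib 3.10.9 were used, and intervals are exact (Clopper-Pearson) 95% binomial intervals. The share and overlap steps were tested on simulated data. The span of a gene runs from the first to the last listed base of either protein. Transcript lengths, motifs and shared 30-nt stretches came from GENCODE M21 transcripts on GRCm38, without coordinates. The genes, lists and rules were chosen with earlier results of these data known. Named were the 4 genes, actin genes with at least 10 peaks, relatives of each gene with a peak, the 2 genes nearest in pattern, and per gene the 3 highest-scoring peaks of each protein and pairs with identical ends. Peaks, genes and blocks outside this rule, among them Csrp1, Tmsb4x and peaks without a partner, were named after their values were seen. Alternatives were score, merging, width and overlap settings.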

Additional observations from a re-analysis of the deposited data

How the results depend on the processing

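Under all alternatives run for the SRSF1 share, its interval included the comparison value of that setting, for each gene and for the 4 together. The share of Flna, Actb, Tpm4 and the 4 together stayed below that value throughout. For Actn4 the side changed. Its 48.6% was above the 47.5% of all peaks, but the upper 50% by score gave 47.4%, just below the 47.5% there. With the longer list cut to the length of the shorter, the Actn4 share was also below the comparison value. The overlapped shares of Flna kept their intervals above those of the lists under each overlap, width, score and merging setting. The score setting removed no Flna peak, so only the list shares changed there, to 43.5% for SRSF1 and 39.4% for SRSF2. The Flna SRSF2 interval began at 40.3%. With the 4 genes together, leaving out Flna gave 56.7% for SRSF1 and 42.1% for SRSF2, and the upper 50% by score gave 48.8% for SRSF2, and these intervals include the list's share; leaving out Flna takes away 96 of 164 peaks, and for the score setting the cause was not tested. Against genes of like density (62.3%, 49.9% and 65.2%), the 68.9% and 54.9% of Flna and the 88.9% of Actb were still higher, with intervals that include the comparison value. The direction turned for the SRSF2 peaks of Actb, at 58.3% (comparison 60.1%). It also turned for Actn4, at 38.9% for SRSF1 (41.5%) and 36.8% for SRSF2 (40.6%). Tpm4 kept its direction, at 66.7% for SRSF1 (40.4%) and 28.6% for SRSF2 (33.5%). These intervals include the comparison value as well. Against peaks of at least the gene's lowest score the direction turned for Flna at 68.9% (comparison 71.3%) and 54.9% (72.0%), for the SRSF2 peaks of Actb at 58.3% (81.2%), and for Actn4 at 38.9% (43.6%) and 36.8% (41.5%), while the 88.9% of Actb SRSF1 peaks stood beside 76.2%. The intervals include the comparison value, other than that of the Flna SRSF2 peaks. The SRSF1 value of Tpm4 rose to 100% in the upper 50%, where 2 peaks were left. There Actn4 fell to 22.2% of SRSF1 and 20% of SRSF2 peaks, below the list shares of 43.5% and 39.4%, with intervals that include them. Overlapped SRSF1 peaks of Actn4 were also below the list's share with midpoints within 50 nt (44.4% against 48.6%). The same held for peaks set to 50 nt (44.4% against 48.5%) and for merging (38.9% against 39.5%), again with intervals that include the list's share. Taking the last of 3 equal parts of the span in place of the 3′ 50% gave 67.6% for Actn4 and 19.0% for Actb, by construction a smaller stretch, and by nucleotides the 3′ 50% of Tpm4 held 28.4%. No paired analysis was possible because each protein has 1 library. With 3 to 51 peaks per gene and protein, counting error limits each share.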
